A study of Mus musculus with 19 samples.

Results

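The receptor genes of the natural killer (NK) gene complex and their lectin-like ligand genes were examined in A223, a squamous cell carcinoma model of the mouse. Members were all entries of the deposited variant table whose gene name began with Klr or Clec2. They comprised 6135 of 564674 variant calls. Of these, 5079 lay in 34 of the table's 18200 genes and 1056 in 19 intervals named after a neighbouring member. By family, 14 Klra genes held 4571 calls, 14 other Klr genes held 335 and 6 Clec2 genes held 173. The A223 cells are labelled C57BL/6-derived and were grown in vitro without any stated treatment. Exome-captured DNA and polyA RNA of these cells were read in 1 library each, so there were no replicates and no test was made. The labels do not say whether the line is a single clone. All other samples of the series are T cell libraries and were not used.

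Ly49 receptors, encoded by the Klra genes, are C-type lectin-like proteins through which mouse NK cells sense class I MHC molecules. Most are inhibitory, and a few activate the cell through the adaptor that Tyrobp encodes. The Klrb1 genes encode NKR-P1 receptors, several of which bind Clr proteins encoded by the interspersed Clec2 genes. The Klrc genes and Klrd1 encode the NKG2 and CD94 chains, and Klrk1 encodes NKG2D, which binds stress-induced ligands on tumour cells. The Klra genes are known for differing between mouse strains in number and sequence.

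A call is a position where the authors listed a base or short insertion or deletion differing from the reference. The reference base of 3399 of 3399 calls inside RefSeq promoter windows matched GRCm38.p6, a C57BL/6J assembly, and positions below are in that build. Genes of the Klra, Klrb1, Klrc and Clec2 families have near-identical copies, and a read from 1 copy can be placed on another. Genotypes and read numbers of single genes are uncertain to that extent. Its part in the results was not tested. Neighbouring calls are also linked, so calls are not independent, and exact Clopper-Pearson 95% intervals cover counting error only.

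Calls placed on member genes can be seen in 4 upstream sequences, chosen after their calls were seen. Those of Klra5, Klra6 and Klra17 also show the similarity of copies, and that of Klrb1a was not compared with a copy. Each of the 4 is the RefSeq GRCm38.p6 sequence of the 250 bases before an annotated start of the gene. All are on the minus strand of chromosome 6, with called reference bases in capitals. The last 13 bases of the Klra5 window and the last 6 of the Klra6 window lie inside the RefSeq bounds of those genes. Klra5 lay at chr6:129913225-129913474, Klra6 at chr6:130026955-130027204, Klra17 at chr6:129876673-129876922 and Klrb1a at chr6:128622935-128623184.
Klra5: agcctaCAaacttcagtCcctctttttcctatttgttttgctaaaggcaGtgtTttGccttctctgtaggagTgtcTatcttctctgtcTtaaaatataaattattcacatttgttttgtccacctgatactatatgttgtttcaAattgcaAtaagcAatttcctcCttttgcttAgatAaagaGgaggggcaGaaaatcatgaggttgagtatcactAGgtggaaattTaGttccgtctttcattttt
Klra6: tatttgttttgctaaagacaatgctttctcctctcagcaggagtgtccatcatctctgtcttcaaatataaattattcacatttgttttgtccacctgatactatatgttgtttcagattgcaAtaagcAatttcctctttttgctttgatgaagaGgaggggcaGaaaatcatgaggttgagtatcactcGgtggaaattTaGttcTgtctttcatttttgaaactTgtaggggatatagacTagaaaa
Klra17: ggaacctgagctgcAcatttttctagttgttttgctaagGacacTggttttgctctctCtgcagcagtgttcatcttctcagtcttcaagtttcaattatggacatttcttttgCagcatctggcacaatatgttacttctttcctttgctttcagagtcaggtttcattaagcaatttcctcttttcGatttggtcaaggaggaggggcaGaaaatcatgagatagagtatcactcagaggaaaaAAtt
Klrb1a: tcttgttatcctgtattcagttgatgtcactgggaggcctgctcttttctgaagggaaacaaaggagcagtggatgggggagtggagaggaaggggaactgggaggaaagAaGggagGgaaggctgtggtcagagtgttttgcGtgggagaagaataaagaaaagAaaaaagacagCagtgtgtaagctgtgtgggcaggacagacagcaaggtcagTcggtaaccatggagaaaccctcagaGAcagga
The Klra5 window held 21 calls, the Klra6 window 10 and the Klra17 window 8. All of these were listed from RNA alone and all were homozygous. RNA reads at these positions ranged from 7 to 41 in Klra5, from 13 to 58 in Klra6 and from 106 to 125 in Klra17. The longest run of identical letters was 53 bases between Klra5 and Klra6, and it held no call. Beyond that run, several matching bases were called in both windows, as at the capitals of gcaAtaagcA. Klra5 and Klra17 shared a run of 23 bases, in which 1 position was called in both. In the Klrb1a window all 9 calls came from the exome, 8 heterozygous and 1 homozygous, with 0 RNA reads. The Klra4 and Klra1 windows held 0 calls. Calls fell in 10 of 37 member windows, belonging to 8 of 31 genes with a window. Over all RefSeq windows of that length the share with a call was 4.23%, against 27% of the member windows.

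A shared deletion in 2 NKG2 genes gives a second case. Klrc3 (chr6:129643263-129643292) and Klrc2 (chr6:129660531-129660560), both on the minus strand, are shown over 30 bases, with the 6 deleted bases in capitals.
Klrc3: agtcatgagtcaCCTGCTtggaactgaaca
Klrc2: agtcatgagtcaCCTGCTtggaactgaaca
The stretches were identical in 30 of 30 bases, and over 300 bases around them in 289 (96.3%). The deletion was homozygous in the exome in both genes, was annotated Leu4_Leu5del in both, and had 0 RNA reads in both. Of 231 distinct protein changes in the members, exome and RNA-only calls together, 6 were listed in 2 or more genes. This count was made after the changes were seen. L115I was listed in Klra4 from RNA alone, and in Klra9 and Klra10 from the exome at 0 RNA reads. K241N and D216E were each listed in Klra5 and Klra6. Protein changes give the reference residue, its position from the first methionine, and the changed residue.

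Klra genes carried many amino acid changes. Among missense and synonymous exome calls, 173 of 240 in Klra genes were missense (72.1%, interval 65.9 to 77.7). The background over all genes of the table was 38.7%. Other Klr genes had 20 of 31 (64.5%, 45.4 to 80.8) and Clec2 genes 12 of 17 (70.6%, 44 to 89.7). The intervals of the 3 families overlapped. Exome missense calls occurred in 21 of 34 member genes (61.8%), against a background of 14.4% of all genes with a call. They included 11 of the 14 Klra genes. The other 3 are annotated pseudogenes.

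**Figure D1:**
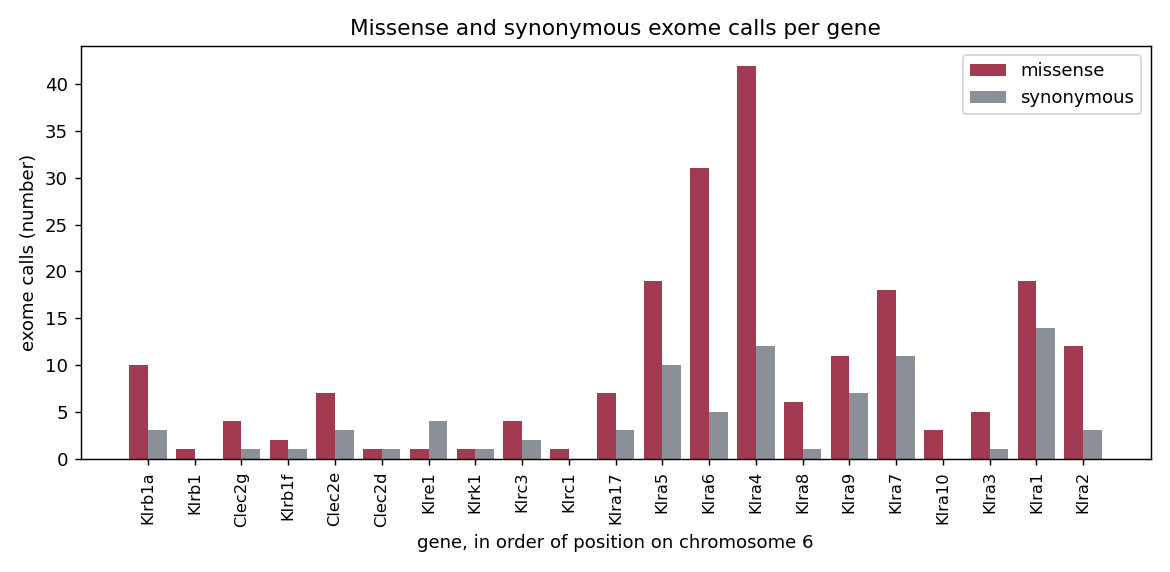
Number of missense and synonymous exome calls (vertical axis) in each member gene with either, in order along chromosome 6 (horizontal axis). Klra4 had 42 missense calls and Klra6 31, and Klre1 had more synonymous (4) than missense (1) calls.

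Klra4, which encodes the activating receptor Ly49D, had 42 missense calls, or 16 per 100 residues of its 263. It ranked 9 by missense calls among 2615 genes with at least 1. Of these calls 36 were heterozygous and 6 homozygous. Klra6, encoding Ly49F, followed with 31 (11.7 per 100 residues, rank 17), of which 13 were heterozygous and 18 homozygous. The Klra6 exome calls formed 2 blocks. All missense calls at residues 18 to 182 were homozygous, but none of them had an RNA genotype listed, at 0 to 39 RNA reads. From residue 199 to 263, 13 of the 14 were heterozygous, the exception being K250N. Klra5 (Ly49E) and Klra1 (Ly49A, an inhibitory receptor) had 19 each, and Klra7 (Ly49G) had 18. Klra2 had 12, Klra9 11, Klra17 7, Klra8 6, Klra3 5 and Klra10 3.

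The position of the missense calls within the protein varied from gene to gene. With each protein divided into 3 equal stretches, the Klra genes together had 53, 74 and 46 calls from the N-terminal to the C-terminal stretch (30.6%, 42.8% and 26.6%). The other genes had 34%, 32.4% and 33.6%. The 12 calls of Klra2 lay between residues 166 and 287, and all were homozygous. The 5 calls of Klra3 lay between residues 41 and 56. Klra7 had 11 of 18 in the N-terminal stretch, and Klra6 had 16 of 31 in the C-terminal one.

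Calls that disrupt a reading frame, a start, a stop or a splice site numbered 13 in Klra genes, 1 in other Klr genes and 2 in Clec2 genes, exome calls only. They made up 5.1% of 255 coding and splice site calls in Klra genes (interval 2.74 to 8.56), against a background of 2.56%. In other Klr genes they were 1 of 34 and in Clec2 genes 2 of 20. The 2 in Clec2 genes were the heterozygous Clec2g frameshifts Leu135fs and Lys138fs, beside a heterozygous in-frame duplication, Lys138dup. Klra8, which encodes the activating receptor Ly49H, had 3 homozygous frameshifts, Ser136fs, Asp139fs and Glu211fs, the first 2 flanking a homozygous inserted histidine. Klra17, encoding Ly49Q, had a heterozygous stop, C40*, and 2 heterozygous calls in its start codon. Klra5 had the heterozygous frameshifts His263fs and Phe264fs close to its end at residue 266. Klra9 had a heterozygous stop, E114*, Klra7 a heterozygous frameshift, His76fs, and Klra2 a homozygous frameshift, Phe246fs. Klra4 and Klra14-ps had a splice site call each. Neighbouring insertions and deletions of 1 gene can restore the frame together, and which of them lie on the same copy was not tested.

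Among NKR-P1 genes, Klrb1a had 10 missense calls, 9 of them heterozygous, and a heterozygous call in its start codon. Klrb1f had the homozygous changes S43F and I215L, and Klrb1 had G115C. Among Clec2 genes, Clec2e had 7 missense calls, all homozygous, from G39R to R209C. Clec2d, the gene of the ligand Clr-b, had D119H, heterozygous in the exome and without an RNA genotype at 56 RNA reads. Of the NKG2 group, Klrc3 had 4 homozygous missense calls, L104H, Y142H, P220T and I221N. Klrc1 had H52Q, Klrk1 H10Y and Klre1 D136E, each homozygous.

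The calls of Clec2g, another ligand gene, lay close together. All 15 fell within 108 bases of exon 5, from 128981224 to 128981331, a span described after it was seen. Of these, 8 were heterozygous in the exome, and 7 were listed from RNA alone. In RNA 8 were homozygous, and only Y160N was listed in both. RNA reads there ranged from 9 to 24.

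Zygosity changed in stretches along the complex. Of exome calls in Klra genes, 654 of 1514 were homozygous (43.2%, interval 40.7 to 45.7), against a background of 54.1% over all genes. Other Klr genes had 233 of 327 (71.3%, 66 to 76.1), and Clec2 genes 96 of 106 (90.6%, 83.3 to 95.4). All Klr genes together had 887 of 1841 (48.2%). Over exonic calls alone, an alternative chosen after seeing the data, the ligand genes had 13 of 23 homozygous (56.5%, 34.5 to 76.8) and the receptor genes 191 of 437 (43.7%, 39 to 48.5). Against all receptor genes together the ligand share was the higher in both counts, but the exonic intervals overlapped. The exonic receptor share joined Klra genes (151 of 380, 39.7%) with other Klr genes (40 of 57, 70.2%, 56.6 to 81.6). Over exonic calls the ligand share was thus lower than that of other Klr genes, again with overlapping intervals. Over all genes the exonic share was 39.3%. Clec2e (52 of 52) and Clec2f (41 of 41) gave most of the homozygous ligand calls.

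**Figure D2:**
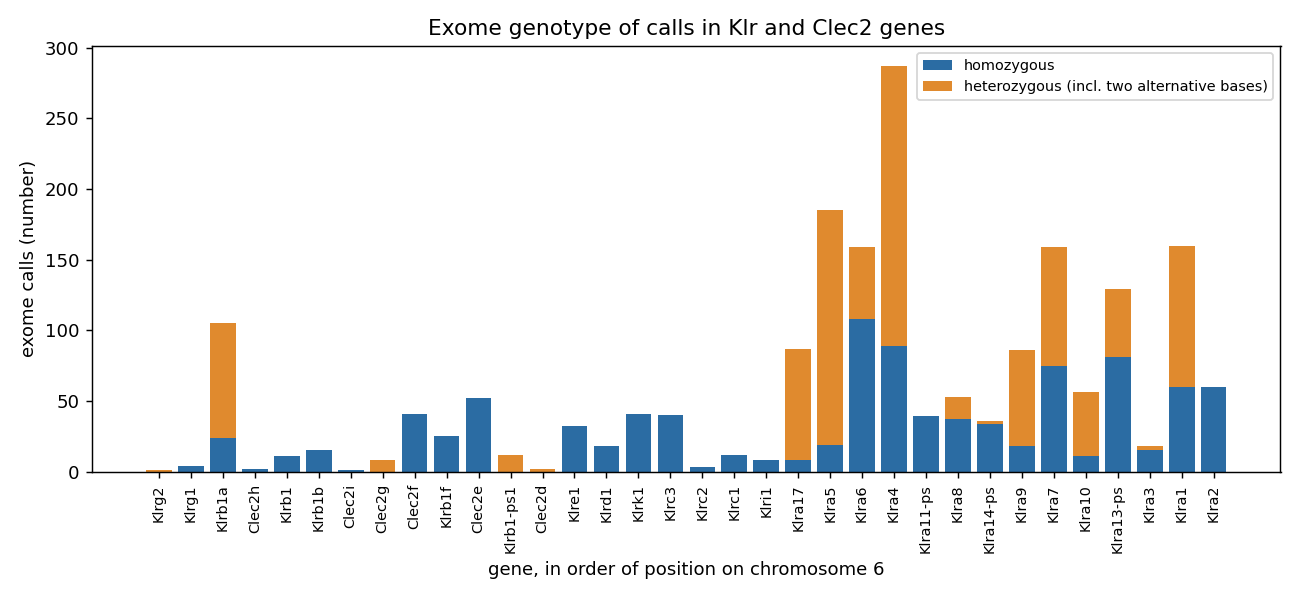
Number of exome calls (vertical axis) by genotype in each member gene, in order along chromosome 6 (horizontal axis). Klre1 to Klri1 held homozygous calls only, and most genes from Klra17 to Klra1 held both kinds.

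The members of the complex spanned 2.64 Mb, from Klrb1a at 128609837 to Klra2 at 131245956. At its start Klrb1a was mostly heterozygous, with 24 homozygous and 80 heterozygous calls and 1 with 2 alternative alleles. Klrb1 (11 of 11), Klrb1b (15 of 15) and Klrb1f (25 of 25) were homozygous throughout. All 8 exome calls of Clec2g, which lies between Klrb1b and Klrb1f, were heterozygous. So were all 12 of Klrb1-ps1 and both of Clec2d, which lie beyond Clec2e. The 7 genes from Klre1 to Klri1, which include the NKG2 receptors and NKG2D, were homozygous at 154 of 154 exome calls. These sat in the longest homozygous run of the complex, 425 consecutive exome calls over 546 kb from 129249696 to 129796075. Other lectin genes between or beside the members (Cd69, Clec1a, Clec1b, Clec7a, Clec9a, Clec12a and Clec12b) were homozygous at 210 of 210.

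The run ended before the Klra cluster. From Klra17 to Klra1, Klra genes had 1444 exome calls with a homozygous or heterozygous genotype. The genotype differed in 15.5% of neighbouring pairs of these calls. No background was counted for this share. Klra17 had 8 homozygous and 79 heterozygous calls, and Klra5 19 and 166. Klra4 had 89 and 196, Klra1 60 and 100, and Klra7 75 and 83. Klra6 had more homozygous (108) than heterozygous (49) calls. Klra11-ps was homozygous at 39 of 39. Klra2, set apart from the cluster, was homozygous at 60 of 60.

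RNA reads covered Klra positions and almost no other receptor position. Depth here is the number of RNA reads at a called position, not a gene's expression. In RNA of a whole culture, fewer cells with a transcript and less RNA per cell cannot be told apart. Of exome calls in Klra genes, 621 of 1514 (41%) had 20 or more RNA reads, against a background of 8.09%. In other Klr genes 0 of 327 did, and 324 had no read at all. In Clec2 genes 8 of 106 did (7.55%). Klrk1, Klrd1, Klrc1, Klrc2, Klrc3 and all Klrb1 genes were at 0 reads at every called position.

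**Figure D3:**
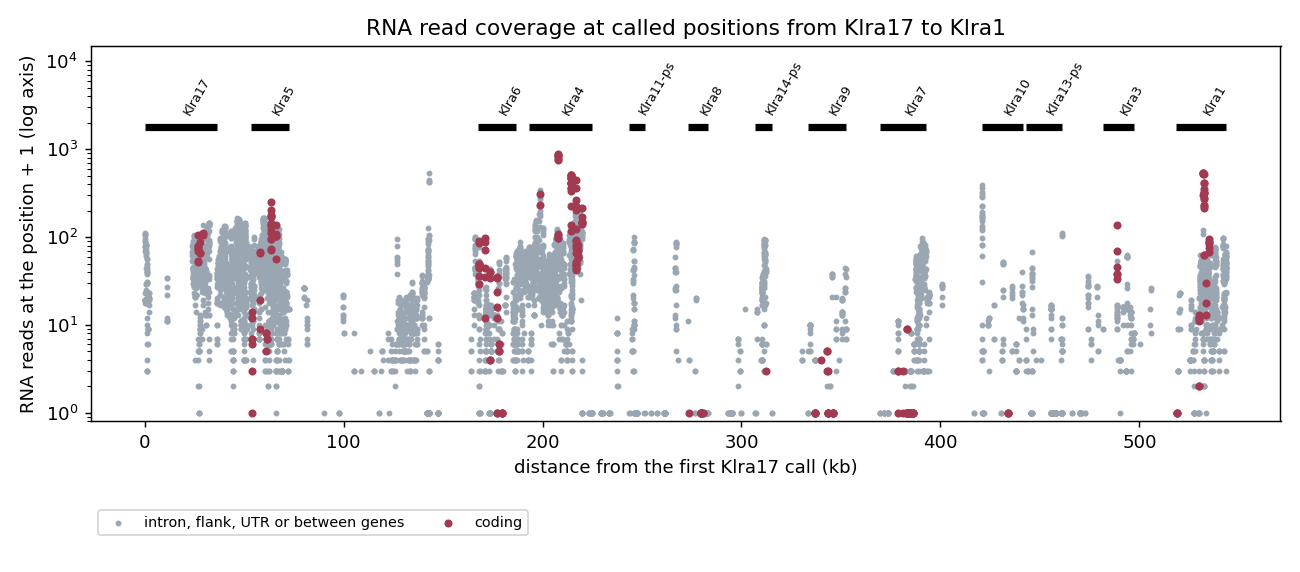
RNA reads at each called position plus 1 (vertical axis, log scale) against distance from the first Klra17 call (horizontal axis, kb); red points are coding calls, grey points all others, and black bars the spans of calls in each gene. Coding positions reached 882 reads in Klra4 and 539 in Klra1, and those of Klra8 and Klra10 stayed at 0.

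The 5 genes with the highest read number at any position were led by Klra4. Their highest values were 882 in Klra4, 539 in Klra1, 394 in Klra10, 247 in Klra5 and 145 in Klra17. In Klra4 the median was 201 reads at coding and 41.5 at intronic positions. In Klra1 it was 87 and 11, in Klra5 71.5 and 43, and in Klra17 75 and 39. At called positions coding medians were thus higher than intronic ones in all 4 genes, although introns were covered in each. Over all Klra genes, 1925 intronic calls came from RNA alone and 957 from the exome. For coding and splice site calls the numbers were 14 and 255. A call listed from RNA alone needs RNA reads, so intron coverage partly follows from how calls were listed. The medians are therefore not a like comparison. Klra10 differed: its coding positions were at 0 reads, but there were only 3 of them, all in exon 3. The highest value of Klra10 lay outside the coding sequence. Coding positions of Klra8 were also at 0, and those of Klra7 reached 8. Klra2 coding positions had 2 to 38 reads.

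Many Klra calls were listed from RNA alone. They were 3057 of 4571 in Klra genes (66.9%), close to the background of 65.9%, against 8 of 335 in other Klr genes and 67 of 173 in Clec2 genes (38.7%). Of the Klra ones 1925 were intronic and 14 coding, and 2586 (84.6%) were homozygous, compared with 59.2% in non-member genes. Over the 544 kb from Klra17 to Klra1, intervals included, 4715 of 6535 calls were listed from RNA alone, or 8.67 per kb. No background was counted for spans that include intervals. The interval next to Klra17 held 562 calls in 11.2 kb, of which 550 were listed from RNA alone, at 1 to 164 reads.

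RNA and exome genotypes often differed in the Klra genes. Among exome calls with 20 or more RNA reads, the RNA genotype was the same for 183 of 621 in Klra genes (29.5%), against a background of 66.5%. Of 151 homozygous exome calls with 20 or more reads, 112 were homozygous in RNA (74.2%, background 80.3%) and 28 had no RNA genotype listed. Heterozygous exome calls accounted for much of the difference. Of 466 with 20 or more reads, 216 were homozygous in RNA (46.4%, interval 41.8 to 51), 70 were heterozygous and 180 had no RNA genotype listed. The background share homozygous in RNA was 9.54%, and in non-member genes it was 7.33%. The share without an RNA genotype was 38.6% in Klra genes, near its background of 32.6%.

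The pooled share joined genes that differed widely. In Klra17, 50 of 56 heterozygous exome calls were homozygous in RNA (89.3%), in Klra5 89 of 106 (84%) and in Klra1 46 of 62 (74.2%). In Klra6 it was 15 of 34 (44.1%) and in Klra10 2 of 17 (11.8%). In Klra4 it was 13 of 183 (7.1%), with 64 heterozygous and 106 without an RNA genotype. No heterozygous RNA genotype was listed at such calls in Klra17, Klra5 or Klra6.

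**Figure D4:**
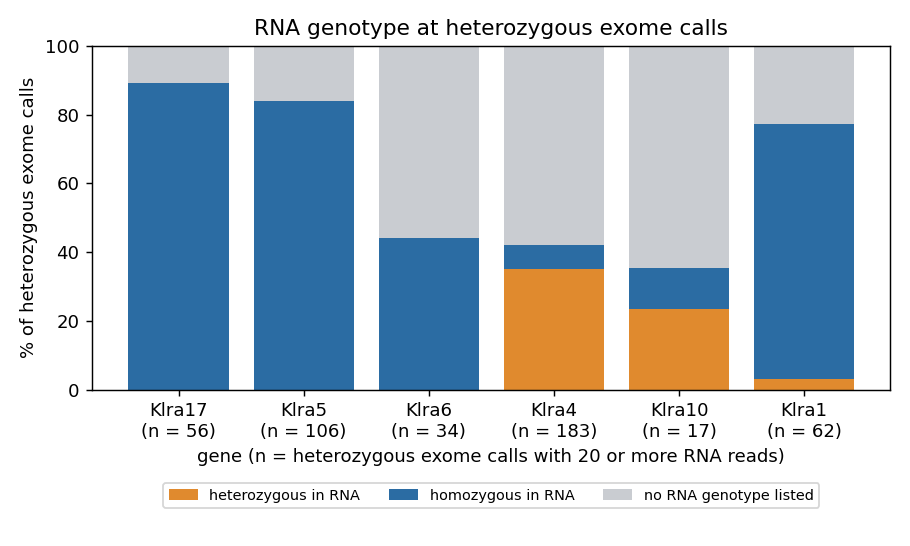
Share of heterozygous exome calls with 20 or more RNA reads (vertical axis, %) by genotype listed in RNA, for Klra genes with 10 or more such calls (horizontal axis, with the number of calls). Homozygous RNA genotypes made up 89.3% in Klra17 and 7.1% in Klra4.

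Read numbers were also split by the RNA genotype. In Klra4 all heterozygous exome calls with 20 or more reads had medians of 92.5 reads without an RNA genotype (106 calls) and 100 with a heterozygous one (64 calls). In non-member genes these medians were 84 and 48. The Klra4 missense calls among them without an RNA genotype had 47 to 882 reads (median 456, 22 calls). Those heterozygous in RNA had 69 to 309 (median 158, 12 calls), and the 2 that were homozygous in RNA had 43 and 51. L200F, at the deepest position, and A210S (866 reads) were among those without one. In Klra17 both start codon calls were homozygous in RNA, at 104 and 109 reads, and C40* had no RNA genotype at 88 reads. In Klra5, S118F was homozygous in RNA at 200 reads and G112D had none listed at 247. These splits by RNA genotype were made after the values were seen.

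Genes of the receptors' partners were read in the same table. Of 9 listed ligand genes 5 had calls. Raet1e, which encodes an NKG2D ligand of the RAE-1 family, had 77 calls, 71 from RNA alone, with 14 to 558 reads (median 242), and no call was exonic. H60b, another NKG2D ligand gene, had 20 missense calls and no RNA read at any exonic call, with up to 35 reads elsewhere. Raet1d had 6 missense calls and at most 2 reads, and all 17 of its calls came from the exome. Ulbp1 had 7 calls, none exonic and 6 from RNA alone, with up to 126 reads. H2-T23 had 3 calls, all from RNA alone, with up to 44 reads. Positions listed from RNA alone have reads by selection, so read numbers of these genes are not a like comparison. H2-K1, H2-D1, H60a and H60c had no call, so no depth was seen there. The adaptor genes Hcst and Tyrobp had 0 reads at their 3 and 1 called positions, all from the exome.

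Marker genes were visible only where they had calls. Of 10 NK and lymphoid markers 4 had calls (Cd3e, Cd8a, Ptprc and Il2rb), all at 0 reads. Of 9 keratinocyte markers 3 had calls. Itgb4 reached 202 reads, but all 22 of its calls were listed from RNA alone. Cdh1 and Dsp were at 0 reads at all 61 and 28 called positions, exonic ones included. Their calls all came from the exome, as did those of the 4 NK and lymphoid markers. A call listed from RNA alone needs RNA reads, so these depths are not a like comparison of genes. RefSeq lists 42 Klr and Clec2 genes, of which 8 had no call under that name. Of these 8, Clec2m had 10 calls under an older name and Klrh1 had 2. Klra16 and Klra23, also among the 8, are listed at 149512-173164 and 553984-576907, far outside the complex. Whether calls could be placed there was not tested.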

How the data were processed

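Exome and RNA reads of A223 were processed by the authors with BWA and GATK, per the submitters' processing notes; versions and build are not given in the sources used here. The deposited table lists, per the file headers, exome and RNA genotypes for each call and the RNA read coverage there, which was not normalised. Both samples came with the same table, read once. In 34 cells, none in members, the coverage was not a single number and was read as missing. Exome depth was not used. Calls were counted with Python 3.11.15, pandas 2.3.3 and scipy 1.17.1, and the counting was tested on simulated data. RNA genotypes were compared at 20 or more reads. Every member gene was counted. Named were genes with a protein-changing or splice exome call, the 5 genes with the highest RNA depths, and genes of the ligand, adaptor, neighbour and marker lists. Members and lists were chosen with earlier results of these data known. Sequences are from RefSeq (GRCm38.p6), and 34 of 34 gene names matched. Alternatives were other read minimums, exonic calls only, single-base changes, rows as deposited, the whole span and leaving out Klra4.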

Additional observations from a re-analysis of the deposited data

How the results depend on the processing

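The homozygous share of members' exome calls along the complex was 50.4%. It was 44.3% over exonic calls and 57.1% over all calls of the span, members or not. The share of heterozygous members' calls homozygous in RNA was 45.8% at 20 or more reads, 46% at 10 or more and 41.2% at 50 or more. Exome calls of members with 20 or more RNA reads made up 32.3%, and 42.8% of exonic calls. The homozygous share of Clec2 calls was 90.6%, and 56.5% over exonic calls, an alternative added after seeing the data. Over exonic calls it was 43.7% in all receptor genes and 70.2% in other Klr genes. The causes were not tested. The Klra missense share of 72.1% was 70.4% without Klra4; counting rows as deposited or single-base changes gives the same calls by construction, since the table held 0 duplicates and missense and synonymous calls here are single-base changes. Inside the complex 5071 of the 5079 calls remained. No paired analysis was possible because there was 1 exome and 1 RNA library. Exome depth and allele read numbers were not used, so the precision of single genotypes is unknown.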
